A study of Mus musculus with 4 samples.

Results

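The RNA of 10 genes of the WNT pathway was measured in mouse embryonic stem cells (ESCs) in G1-phase, in serum or 2i conditions. They were Ctnnb1, the TCF/LEF factors Tcf7l1, Tcf7l2, Tcf7 and Lef1, the scaffold Axin1, and the feedback or direct targets Axin2, Sp5, Nkd1 and Apcdd1. The genes were chosen by name, and all 10 had a row among the 14533 genes of the table. There were 2 libraries of serum ESCs and 2 of 2i ESCs. Serum ESCs were kept in medium with serum and leukemia inhibitory factor. 2i ESCs were kept in serum-free medium with the same factor and a pair of kinase inhibitors, CHIR99021 against GSK3 and PD0325901 against MEK. All cells had been adapted to their medium for over 20 days. The sample labels place the cells in late G1-phase, whereas early G1-phase is named in the description of the series. The labels name no cell line. In the study, cells were sorted on a fluorescent cell cycle reporter, so each library is a sorted fraction of a culture.

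In the canonical WNT pathway, a cytoplasmic complex built on the Axin scaffolds, APC, GSK3 and CK1 marks beta-catenin for destruction. When the complex is stopped, by a WNT ligand at its receptors or by an inhibitor of GSK3, beta-catenin protein accumulates, enters the nucleus and binds TCF/LEF factors on DNA. Some targets, such as Axin2 and Nkd1, encode inhibitors of the same pathway and so feed back on it. In mouse ESCs, Tcf7l1 is known mainly as a repressor of pluripotency genes, and CHIR99021 in 2i stabilizes beta-catenin by inhibiting GSK3. RNA measures neither beta-catenin protein nor its place in the cell.

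Summed over the genes of the table, the libraries held 18939401 to 26570098 whole reads. Protein-coding genes took 46.9% and 76.3% of them in serum replicates 1 and 2, against 57.8% and 66.3% in 2i. The 10 most abundant genes of each library took 50.6% and 17.5% in serum, against 34.7% and 25.5% in 2i. All 8 ESC markers of a fixed list, Pou5f1 and Nanog among them, had a row, and their summed normalized counts were 52047 and 68239 in serum, against 53446 and 66564 in 2i. Of 6 primitive streak markers, which include known beta-catenin targets, 3 had a row, with sums of 275 and 140.0 in serum, against 280.3 and 261 in 2i. Of 7 primitive endoderm markers 4 had a row, with sums of 72.0 and 109 in serum, against 332 and 256 in 2i. Trophoblast markers (3 of 5) summed to 346 and 107 in serum and to 2496 and 112 in 2i replicates 1 and 2, where Elf5 alone gave 2215 in 2i replicate 1. Neural markers (2 of 5) summed to between 380.0 and 795, and fibroblast markers (2 of 6) to between 58.2 and 230.1. No listed marker with a row was at 0 in any library. What part these differences have in the values below was not tested.

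Values are normalized read counts, that is, gene counts divided by a size factor for each library. Differences between conditions are log2 fold changes of serum over 2i, taken on log2(normalized read count + 1) with limma, where a value above 0 is higher in serum. A gene was tested when its mean reached 50 in either group, and called where it changed beyond 2-fold and its adjusted p-value was under 0.05. Of the 10 genes, 9 were tested and 0 were called in either direction. Over all 13005 genes tested, 0% were called higher in serum and 0.0154% higher in 2i. The latter were 2 copies of the U1 small nuclear RNA, named here after their values were seen. At an unadjusted p-value under 0.05 and beyond 2-fold, 0 of the 9 genes passed, while 2.97% of all genes passed as higher in serum and 3% as higher in 2i. On whole reads, edgeR called 0 of the 9 and 0 of all 13005 genes. DESeq2 called 0 of the 9 and 253 of the 13005. Counts of 0 among so few genes are no result about them. The limma p-values rest on the spread between these samples, drawn towards a variance trend over all genes (4.41 prior of 6.41 total degrees of freedom). An exact permutation test of a single gene here has 3 splits and cannot go below 0.333, so none was run.

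Serum and 2i values did not overlap for 2 of the 9 genes, Tcf7l1 (serum above 2i) and Apcdd1 (2i above serum). Of all genes tested, 20.5% had serum values above 2i without overlap and 19.4% the reverse. The count among the WNT genes is therefore no higher than the background. For the other 7, the replicates of a group spanned values of the other group. In RNA from many cells, a lower level in each cell and fewer cells that express a gene cannot be told apart.

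**Figure D1:**
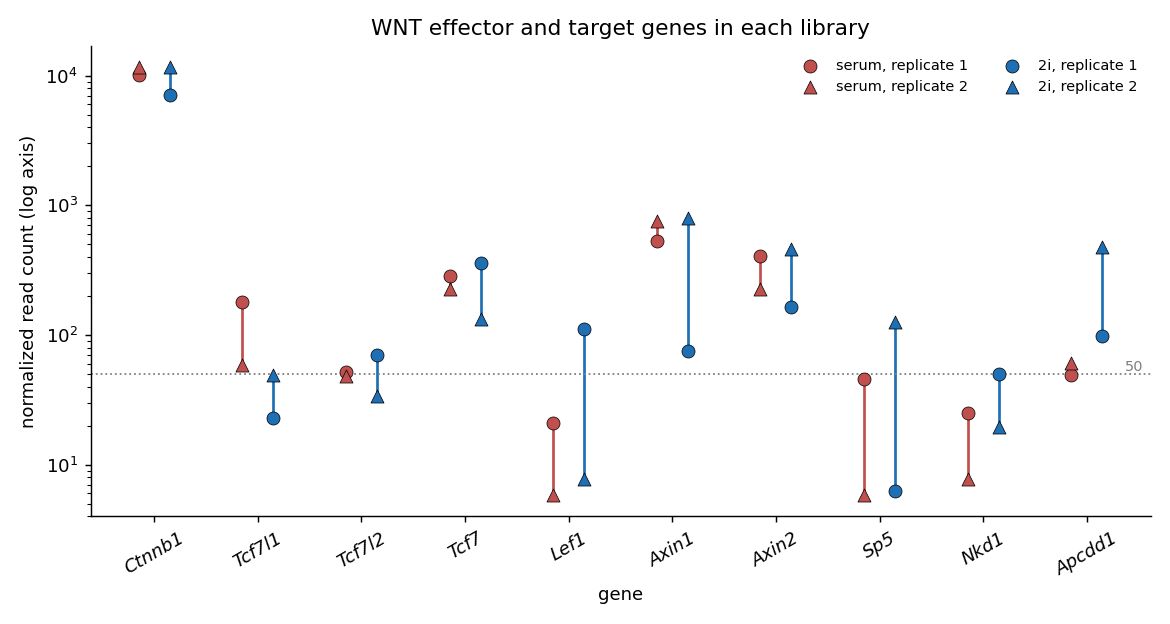
Normalized read count (log axis) of each of the 10 genes in each library, in serum (red) and 2i (blue), with replicate 1 as circles and replicate 2 as triangles; lines join the replicates of a group, and the dotted line marks a count of 50. Only Tcf7l1 and Apcdd1 show groups that do not overlap, and the lines for Lef1, Axin1 and Sp5 in 2i are the longest.

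Ctnnb1, which encodes beta-catenin, the co-activator at the centre of the pathway, was by far the most abundant of the 10. Its normalized read counts were 10050 and 11569 in serum, against 7032 and 11579 in 2i. The highest and the lowest value were thus both from 2i libraries. Its log2 fold change was 0.26 (SE 0.54, 95% interval -1.04 to 1.55, adjusted p = 0.921 with limma), and the interval includes a change of 2-fold in either direction. Per kb of exon, the mean level of Ctnnb1 was 1972 normalized read counts, against 141 for Axin1, the next in order. Then came Tcf7 (90.1), Apcdd1 (61.3), Axin2 (57.1), Tcf7l1 (23.4), Sp5 (22.0), Tcf7l2 (5.87), Nkd1 (5.72) and Lef1 (4.24). Ctnnb1 was above Axin1 in every library, with 1379 or more per kb against at most 209, whereas the ranges of all other neighbours in this order overlapped across the 4 libraries. The gene lies on chromosome 9 at 120838334 to 120869625 (mm9, plus strand). It shares 240 exon bases with Ulk4 on the other strand, and the strandedness of the libraries is not given in the sources used here.

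The TCF/LEF factors bind DNA and recruit beta-catenin or, without it, corepressors of the Groucho/TLE family. Tcf7l1 (chromosome 6, 72576372 to 72739248, minus strand), the family member known as a repressor in ESCs, had 180.1 and 58.3 normalized read counts in serum, against 22.8 and 49.5 in 2i. Both serum values lay above both 2i values, but serum replicate 2 was close to 2i replicate 2. Serum exceeded 2i by a log2 fold change of 1.58 (SE 0.98, 95% interval -0.78 to 3.94, adjusted p = 0.754 with limma). Leaving out serum replicate 1 gave 0.77 and leaving out serum replicate 2 gave 2.38, while the corresponding values for 2i replicates 1 and 2 were 1.04 and 2.12. The whole reads behind the serum values were 180 (exact 95% Poisson interval 154.7 to 208.3) and 60 (45.8 to 77.2), so the serum replicates differed from each other by more than counting error. In 2i there were 22 (13.8 to 33.3) and 51 reads (38.0 to 67.1). These intervals cover counting error only. Tcf7l1 passed the filter through its serum libraries alone, and it shares 179 exon bases with Gm15401 on the other strand.

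The longest coding transcript of Tcf7l1 has a GC content of 59.3%, which puts it in the decile of genes with the highest GC content. In that decile the median log2 fold change over all genes was -0.40, against 0.49 in the decile with the lowest. After a correction of each library for GC content and transcript length, the log2 fold change of Tcf7l1 was 1.98 (adjusted p = 0.631 with limma). The direction was the same in every alternative run.

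Tcf7 (chromosome 11, 52065873 to 52096681, minus strand), often described as an activating family member, had 286 and 226 normalized read counts in serum. In 2i it had 361 and 132, above and below both serum values. The log2 fold change was 0.22 (SE 0.63, adjusted p = 0.941 with limma), and 0.58 after the GC and length correction. Tcf7l2 (chromosome 19, 55816300 to 56008144, plus strand), the main partner of beta-catenin in the intestine, had 52 and 48.6 in serum, against 70.6 and 34 in 2i. Here too the 2i replicates enclosed the serum values. The log2 fold change of Tcf7l2 was 0.04 (SE 0.94, adjusted p = 0.993 with limma), and -0.18 after the GC and length correction.

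Lef1 (chromosome 3, 130813389 to 130927274, plus strand), a factor that is itself a WNT target in many tissues, had 21.0 and 5.8 normalized read counts in serum, against 112 and 7.8 in 2i. A single library, 2i replicate 1, stood above the rest, with 108 reads (exact 95% Poisson interval 88.6 to 130.4) against 8 (3.5 to 15.8) in 2i replicate 2. The log2 fold change of -1.36 (SE 2.05, adjusted p = 0.891 with limma) became 0.49 without 2i replicate 1. Lef1 passed the filter only through 2i. Its 95% interval ran from -6.29 to 3.57.

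Set side by side per kb of exon, Tcf7 was the most abundant TCF/LEF factor in every library. It made up 62.1% and 77.3% of the summed level of the 4 factors in serum and 82.3% and 70.6% in 2i. Tcf7l1 came next in both serum libraries (32.8% and 16.7%) and in 2i replicate 2 (22.2%), but held 4.37% in 2i replicate 1, below Lef1 with 8.23%. The sum itself varied more within groups than between them, with 165 and 105 normalized read counts per kb in serum, against 157 and 67.0 in 2i. Tcf7l2 held 3.6% to 5.8% throughout. A level per exon base depends on which exons a cell uses, and with the longest coding transcript as the length the order of the means, Tcf7 (99.0 per kb), Tcf7l1 (25.5), Tcf7l2 (11.9) and Lef1 (10.5), was the same.

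**Figure D2:**
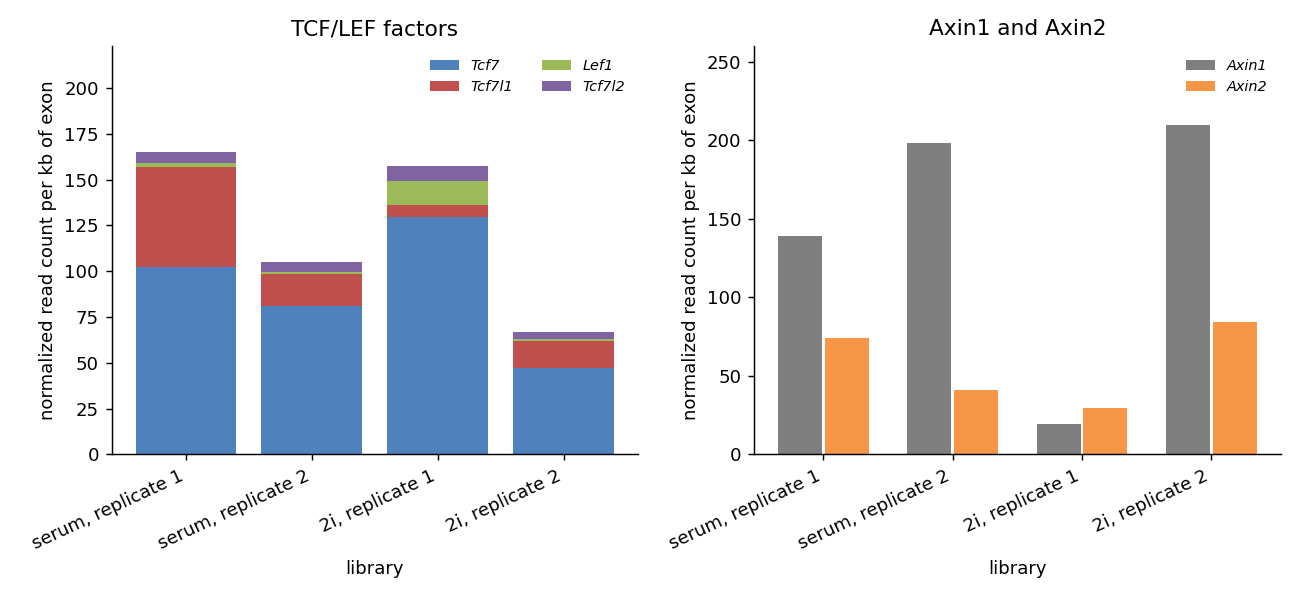
Normalized read count per kb of exon in each library, on linear axes from 0, for the 4 TCF/LEF factors stacked (left) and for Axin1 and Axin2 side by side (right). Tcf7 is the largest block in each library, and Axin1 exceeds Axin2 in each library but 2i replicate 1, where they are 19.5 and 29.6.

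Axin1 (chromosome 17, 26275631 to 26332756, plus strand), the constitutive and limiting scaffold of the destruction complex, had 531 and 759 normalized read counts in serum, against 74.7 and 802 in 2i. The low value of 2i replicate 1 stood apart from the other libraries, being 10.7-fold below 2i replicate 2. With all libraries its log2 fold change was 1.37 (SE 1.06, 95% interval -1.18 to 3.91, adjusted p = 0.771 with limma). It rested on that library, since leaving out 2i replicate 1 gave -0.34 and leaving out the other 2i library gave 3.07. With 72 reads against 827, counting error is small beside the difference between the 2i replicates.

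Axin2, a homologue of Axin1 with the same role in the complex, is a direct target of beta-catenin and TCF and a widely used readout of the pathway. The gene lies on chromosome 11 at 108781663 to 108812097 (mm9, plus strand). It had 408 and 225 normalized read counts in serum, against 163 and 463 in 2i. The highest and the lowest level were both in 2i. Between the conditions its log2 fold change was 0.14 (SE 0.66, 95% interval -1.46 to 1.74, adjusted p = 0.971 with limma), and 0.29 after the GC and length correction. Axin2 thus did not differ beyond the spread between replicates, and the interval leaves differences of more than 2-fold in both directions. Per kb of exon, Axin1 was 1.87-fold and 4.86-fold above Axin2 in serum and 2.49-fold above it in 2i replicate 2. In 2i replicate 1 the order was turned, with a ratio of Axin1 to Axin2 of 0.66. Axin2 shares 209 exon bases with Gm11670 on the other strand.

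Sp5 encodes a zinc finger factor that is a direct target of beta-catenin and TCF in ESCs and binds many of the same promoters. The gene lies on chromosome 2 at 70312980 to 70315786 (mm9, plus strand). It had 46.0 and 5.8 normalized read counts in serum, against 6.2 and 127 in 2i. Each group therefore held a low library and a higher one. The whole reads were 46 (exact 95% Poisson interval 33.7 to 61.4) and 6 (2.2 to 13.1) in serum, and 6 (2.2 to 13.1) and 131 (109.5 to 155.4) in 2i, so that the replicates of both groups differed beyond counting error. With all libraries, its log2 fold change was -0.76 (SE 2.05, 95% interval -5.70 to 4.17, adjusted p = 0.937 with limma), and -0.20 after the GC and length correction. Sp5 has a GC content of 62.0%, in the highest decile, and passed the filter only through 2i. Of the 43-base words of its coding transcripts, 97.2% occur in no transcript of another protein-coding gene.

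The promoters of Sp5 and Axin2 are shown because they are the best known direct targets among the 10 and were both higher in serum replicate 1 and in 2i replicate 2. Each sequence is the 250 bases before the gene's start, from RefSeq (GRCm38.p6), and was found once, letter for letter, on its mm9 chromosome, ending at the base before the GENCODE start. Matches to the core letters bound by TCF/LEF factors, searched on both strands as CTTTG followed by AA, by AT, by TA or by TT, are in capitals.
Sp5, chr2:70312730-70312979, plus strand: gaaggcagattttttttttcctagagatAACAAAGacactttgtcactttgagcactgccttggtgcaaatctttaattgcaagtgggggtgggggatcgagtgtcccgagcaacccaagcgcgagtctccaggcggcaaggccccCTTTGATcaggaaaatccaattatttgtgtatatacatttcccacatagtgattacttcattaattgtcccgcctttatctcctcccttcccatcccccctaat
Axin2, chr11:108781413-108781662, plus strand: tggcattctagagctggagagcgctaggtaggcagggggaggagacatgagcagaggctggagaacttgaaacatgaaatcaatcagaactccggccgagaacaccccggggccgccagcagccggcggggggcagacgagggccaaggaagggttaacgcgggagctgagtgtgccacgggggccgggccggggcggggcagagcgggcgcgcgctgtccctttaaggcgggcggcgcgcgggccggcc

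The Sp5 window held 2 matches, CTTTGAT beginning 104 bases before the start and AACAAAG, the reverse complement of CTTTGTT, whose first base on the plus strand lies 222 bases before it. The Axin2 window held 0. At least 1 match was found in 14.8% of the 32851 promoter windows that RefSeq gives, and in at least 1 window of 16.8% of the genes. Of the 10 genes 8 had a window there, with 14 windows in all, and a match was found in 3 windows, 1 each of Tcf7l2, Lef1 and Sp5. Axin1 and Apcdd1 had no window there. A match is a description of letters in this window and does not show binding, and windows without a match say nothing of sites elsewhere in the gene.

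Nkd1, which encodes an inhibitor of Dishevelled and is induced by the pathway in many tissues, lies on chromosome 8 at 91045243 to 91118786 (plus strand). It had 25 and 7.8 normalized read counts in serum, against 49.8 and 19.4 in 2i. Its mean was under 50 in both groups, so it was not tested. Without a filter the log2 fold change was -1.09 (SE 1.31, adjusted p = 0.851 with limma). Serum replicate 1 lay between the 2i replicates. There were 8 to 48 reads per library, and the replicates of each group differed beyond counting error, with 25 (exact 95% Poisson interval 16.2 to 36.9) and 8 reads (3.5 to 15.8) in serum.

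Apcdd1 (chromosome 18, 63081981 to 63112849, plus strand), a membrane protein that binds WNT ligands and their LRP co-receptors and inhibits signalling, had 49.0 and 61.2 normalized read counts in serum, against 97.6 and 478 in 2i. Both 2i values lay above both serum values, and 2i replicate 2 was 4.90-fold above 2i replicate 1. The log2 fold change was -1.96 (SE 0.88, 95% interval -4.09 to 0.16), the farthest from 0 of the 9. Its unadjusted p was 0.0651 and its adjusted p 0.753 (limma). Leaving out 2i replicate 2 gave -0.82, and leaving out 2i replicate 1 gave -3.10. On whole reads DESeq2 gave -2.38 with an unadjusted p of 0.0142 and an adjusted p of 0.218. The longest coding transcript of Apcdd1 has a GC content of 57.9%, in a decile of genes whose median log2 fold change was -0.28. After the GC and length correction the log2 fold change of Apcdd1 was -1.55. The size of the difference thus depended mainly on 1 library, while its direction was the same in every alternative run.

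**Figure D3:**
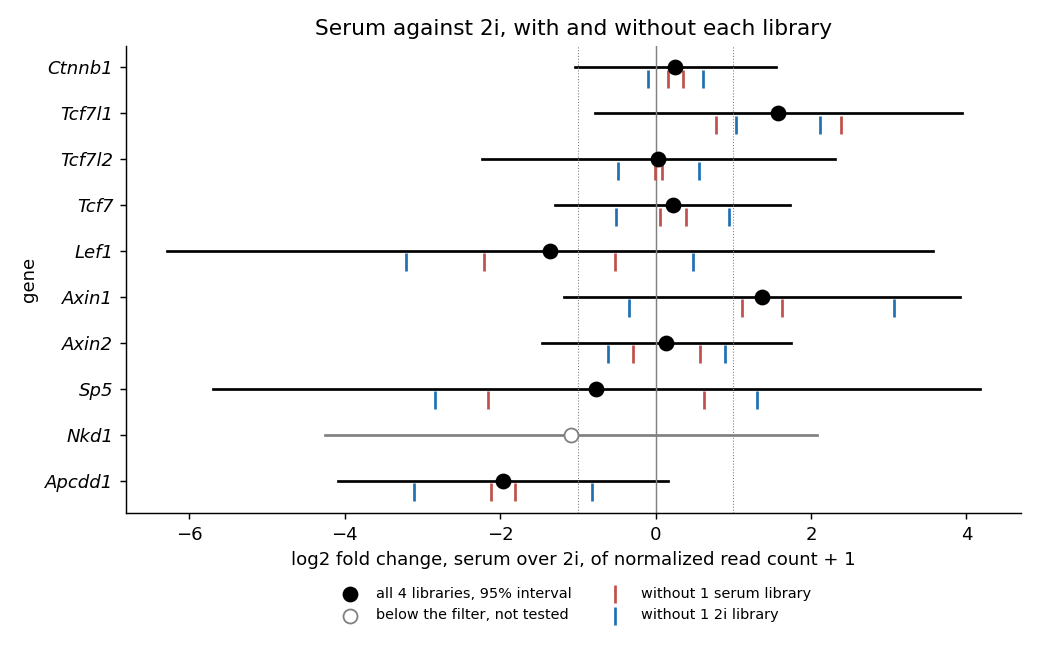
Log2 fold change of serum over 2i for the 10 genes, with the 95% interval from limma as a line and dotted guides at a 2-fold change; ticks give the value without each library in turn. Nkd1, below the filter, has no ticks. All 9 tested intervals include 0 (the closest is Apcdd1, -4.09 to 0.16), and the ticks of Ctnnb1, Tcf7l2, Tcf7, Lef1, Axin1, Axin2 and Sp5 fall on both sides of 0.

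Among the 10 genes the replicates differed most within 2i. Of the 10, 9 differed more than 2-fold between the 2i replicates, with Ctnnb1 as the exception, against 40.6% of the genes in the table. The share was 41.6% over tested genes with a mean under 600, the range of all these genes but Ctnnb1. Beyond 4-fold there were 4, namely Lef1, Axin1, Sp5 and Apcdd1, against 16% of the table. Between the serum replicates 4 of the 10 differed more than 2-fold, against 27.5%. These shares are descriptions, since the genes are few and were not drawn at random.

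The order of the replicates was not shared by all members. Lef1, Nkd1, Tcf7 and Tcf7l2 were higher in replicate 1 than in replicate 2 of both groups. Ctnnb1, Axin1 and Apcdd1 were higher in replicate 2 of both groups. Tcf7l1, Axin2 and Sp5 were higher in serum replicate 1 and in 2i replicate 2, an order found for 21.4% of the genes in the table. For Tcf7l1 and Sp5 each of these differences was beyond 2-fold, which held for 1.98% of the table. The serum difference was 1.61 for Tcf7l1, 0.86 for Axin2 and 2.78 for Sp5 on the log2 scale, and the 2i difference was -1.08, -1.50 and -4.15.

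**Figure D4:**
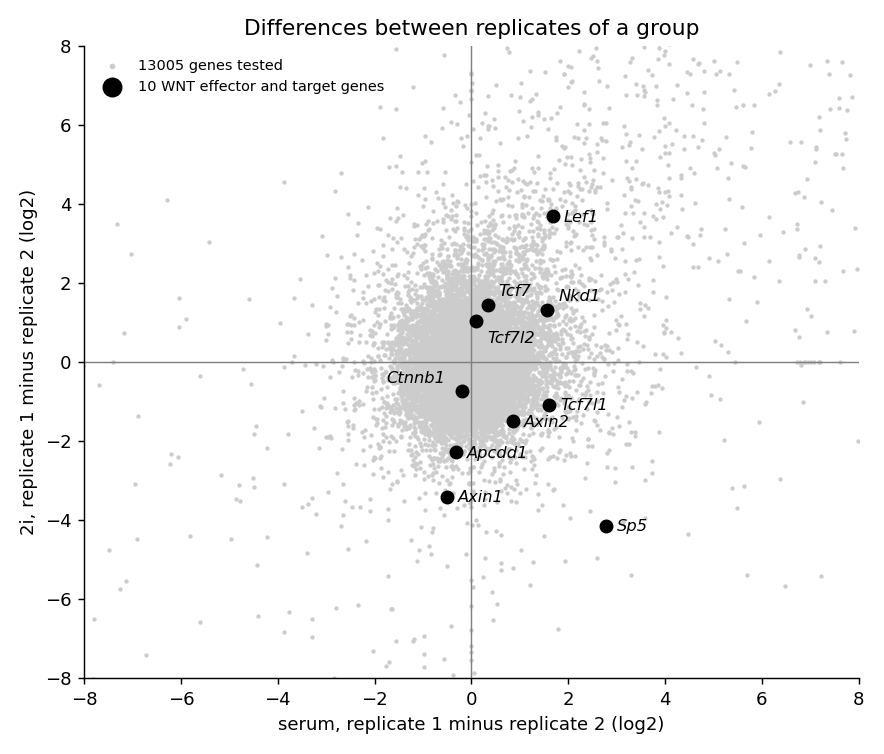
Log2 difference of replicate 1 over replicate 2 in serum (horizontal) and in 2i (vertical) for the 13005 genes tested (grey) and for the 10 WNT genes (black); 250 genes lie outside the axes. Axin1, Apcdd1, Lef1 and Sp5 lie more than 2 log2 units from 0 on the vertical axis, and Tcf7l1, Axin2 and Sp5 are in the lower right quadrant.

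A pair of other WNT targets, chosen after their values were seen, had the same order. T, which encodes Brachyury, had 102 and 6.8 normalized read counts in serum, against 11.4 and 68.9 in 2i. Notum, a secreted enzyme that removes the lipid from WNT ligands, had 484 and 301 in serum, against 194 and 512 in 2i. In both genes the highest and lowest values were therefore not split by condition. T and Notum were picked for this order, so they do not show that WNT targets share it. This order was found in 5 of 11 other response genes, T among them, and in 18 of all 80 other pathway genes (22.5%), close to the 21.4% of all genes given above.

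Beyond the 10 genes, a list of 112 other WNT pathway genes was examined, of which 80 had a row and 70 were tested. In the fit over all genes, 0 of the 70 were called in either direction, against only 2 of all 13005 genes tested. At an unadjusted p under 0.05 and beyond 2-fold, 3 of the 70 (4.29%) passed as higher in serum and 0 as higher in 2i, against 2.97% and 3% of all genes tested. A share this near the background is no result about the pathway. The median log2 fold change was 0.07 over the 70 and 0.14 over the 9 effectors and targets, against 0.00 over all genes tested. Serum lay above 2i without overlap in 11 of the 70 (15.7%), against 20.5% of all genes tested, and 2i above serum in 13 (18.6%), against 19.4%. These shares are below those of all genes.

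The 3 genes, described for their values, were Myc, Bmp4 and Porcn. Myc, a growth regulator that responds to WNT, ERK and LIF signalling alike, had 131 and 657 normalized read counts in serum, against 7.3 and 4.9 in 2i. Bmp4, a ligand of the BMP pathway, had 772 and 1533 in serum, against 196 and 79.5 in 2i. Porcn, the enzyme that attaches the lipid WNT ligands need for release, had 258 and 112 in serum, against 59.2 and 21.3 in 2i. In all 3 genes each serum value lay above each 2i value, but the genes were picked by a test of these same values. Myc and Porcn passed the filter through serum alone. The log2 fold changes were 5.41 for Myc, 3.11 for Bmp4 and 2.22 for Porcn (adjusted p = 0.753 for each with limma). DESeq2 on whole reads called 2 of the 70, Myc (adjusted p = 1.50e-05) and Bmp4 (adjusted p = 0.00261), both higher in serum. Over all 13005 genes tested, DESeq2 called 77 higher in serum and 176 higher in 2i.

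Upstream in the pathway 0 genes were called, which is no result about them, since only 2 of all 13005 genes tested were called. Of 19 WNT ligands 5 had a row and 2 were tested, with log2 fold changes of 0.13 for Wnt6 and -0.98 for Wnt5b. All 13 receptors and co-receptors with a row were tested, from 1.17 for Fzd7 to -1.07 for Fzd9. Fzd9 had 84.0 and 42.8 normalized read counts in serum, against 148 and 109 in 2i, and Fzd8 had 47.0 and 24.3 in serum, against 65.4 and 78.6 in 2i. In both receptors the 2i values lay above the serum values. The R-spondin receptor Lgr4 (0.48) and the ligase Znrf3 (0.34), itself a feedback target, were the tested genes of receptor turnover. Among 6 antagonists tested, secreted or at the membrane, the ends of the range were Sfrp4 (1.14), a secreted frizzled-related protein, and Kremen2 (-1.16), a membrane receptor for Dickkopf proteins. Sfrp4 had 165 and 117 in serum, against 108 and 35.9 in 2i, without overlap. The GC and length correction moved several of these log2 fold changes, to -0.47 for Wnt5b, 0.67 for Wnt6, -0.50 for Fzd9, 0.27 for Lgr4 and -0.66 for Kremen2.

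The 15 Dishevelled and destruction complex genes tested lay between 0.98 for Amer1 and -0.32 for Btrc, an adaptor of the ligase that destroys beta-catenin. Among 14 nuclear cofactors the ends were Ctbp2 (1.25), a corepressor, and Bcl9l (-0.73), which links beta-catenin to Pygopus. Ctbp2 had 1530 and 3611 normalized read counts in serum, against 916 and 1062 in 2i, without overlap. Among 10 other response genes tested, Myc was highest and Dact3 lowest (-1.08). Dact3, a Dishevelled-binding protein, had 53 and 56.4 in serum, against 115 and 117 in 2i, without overlap. After the GC and length correction the log2 fold change of Dact3 was -0.39 and that of Bcl9l -0.38.

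Tcf7l1 is known to repress Esrrb, Nanog and Klf2 in ESCs, the 3 of 4 such listed genes that had a row. Of these 3, 0 were called, which is no result about them, since only 2 of all 13005 genes tested were called. Among the 3, the ends of the range were Esrrb (0.45) and Klf2 (-0.63), where Klf2 was at -0.10 after the GC and length correction. Among 4 partners of beta-catenin at the cell membrane, the ends were Ctnnd1 (0.78), which encodes p120-catenin, and Jup (-0.48), which encodes plakoglobin, a close relative of beta-catenin and at -0.11 after the correction. None of these differences passed the test.

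**Figure D5:**
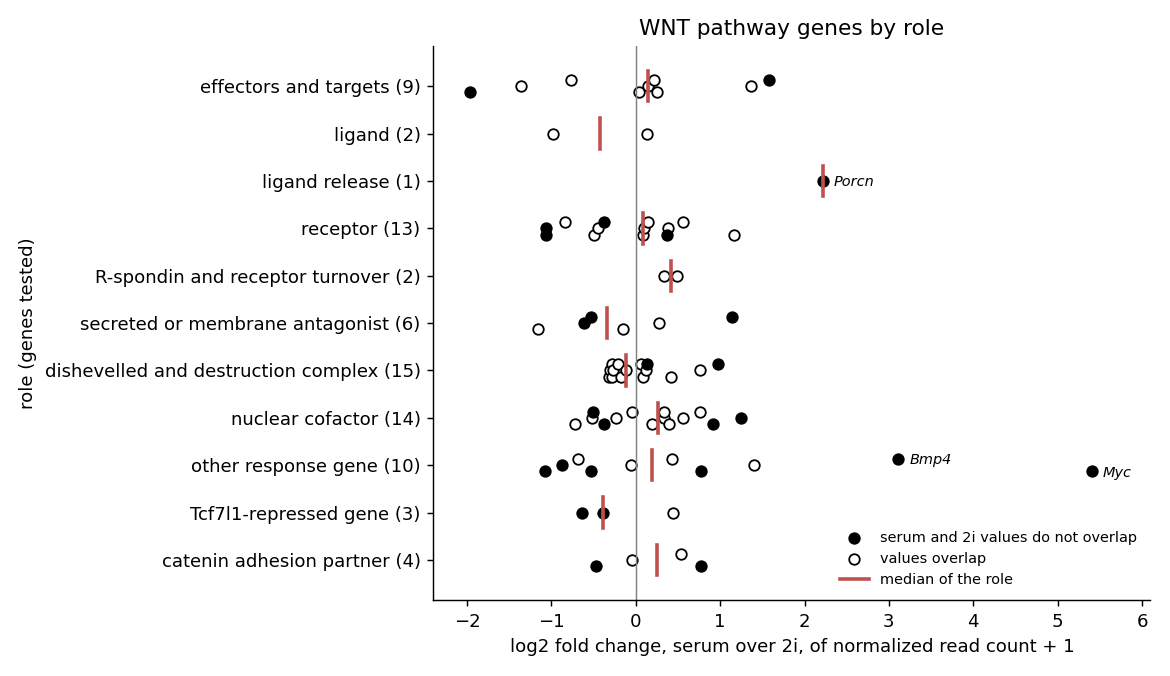
Log2 fold change of serum over 2i for each tested gene by role, with the number tested in brackets, the median of each role as a red bar, and filled points where serum and 2i values do not overlap. Most genes lie within 1 of 0, and the points beyond 2 are Porcn (2.22), Bmp4 (3.11) and Myc (5.41).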

How the data were processed

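RNA was sequenced from 2 serum and 2 2i libraries of mouse ESCs. The authors removed ribosomal RNA, primed at random, used Bowtie to align single-end reads to mm9, and then MMSeq to estimate transcript levels. What they deposited is a signal: counts per gene, scaled per library by size factors of DESeq2. In each library 100% of the values were whole multiples of a step. The tolerance was 0.01 of a read, and it widened in proportion to the count for highly expressed genes. This gave whole reads of 26570098 and 18939401 in serum, against 21649417 and 20421024 in 2i. They may be rounded estimates, and the Poisson intervals take them as counts. How reads shared by related genes were divided was not tested.

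Symbols came from GENCODE vM1, which held 14462 of 14533 genes. limma (version 3.58.1, R 4.3.3) was fitted with a variance trend, with a pseudocount of 1 and a minimum mean of 50 in either group. Adjusted p-values (Benjamini-Hochberg) cover all 13005 genes kept. Alternatives were other pseudocounts, filters and scalings, a replicate block, omission of each library, other thresholds, limma with no trend, a GC content and transcript length correction (mgcv 1.9.3), and edgeR (4.0.16) and DESeq2 (1.42.0) on whole reads. The correction without a filter was added after the data were seen. The genes and lists were chosen with earlier results of these data known. All 10 genes are named, and in each role of the list the tested genes with the highest and lowest log2 fold change and any with groups that do not overlap beyond 2-fold. T, Notum and the U1 RNA were named outside this rule, after their values were seen.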

Additional observations from a re-analysis of the deposited data

How the results depend on the processing

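Of the 10 genes, 0 were called under every alternative run. The count over all genes moved from 2 to 4 with a mean of at least 200, 3 with a pseudocount of 5, 203 with the replicate block, 1 without trend, 0 with edgeR, 253 with DESeq2, 0 with the GC and length correction, with or without a filter, 4 with the block and correction together, and 776 at unadjusted p-values, and was 0 to 0 without each library. Pathway genes called numbered 2 with the block, 2 with DESeq2 and 3 at unadjusted p-values. The replicate block changed no call among the 10 genes. With it, the unadjusted p of Axin1 went from 0.240 to 0.0350 and that of Apcdd1 from 0.0651 to 0.0177 (limma). Their adjusted p-values were 0.401 and 0.309 (limma with the block), and the other genes tested stayed above 0.05 unadjusted. Replicate differences of serum and 2i correlated at 0.480 across genes, and with 2 numbers the labels do not show a pairing.

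Of 168 single values recomputed, 150 had the direction reported and 18 did not. Tcf7l2 was -0.083 with upper quartile scaling, -0.10 with edgeR and -0.054 with DESeq2. It was -0.18 with the correction (also with the block) and -0.15 with the correction and no filter. Axin2 was -1.76e-05 with edgeR, and Sp5 was 0.66 with quantile normalization. Without each library in turn, values ran from -0.10 to 0.62 for Ctnnb1, -0.48 to 0.55 for Tcf7l2, -0.50 to 0.94 for Tcf7, -3.21 to 0.49 for Lef1, -0.34 to 3.07 for Axin1, -0.61 to 0.89 for Axin2 and -2.84 to 1.31 for Sp5. The cause of these changes was not tested. The median over all genes was -0.12 with upper quartile scaling. Nkd1, Lef1 and Sp5 had under 10 reads in at least 1 library, and their 2i replicates also differed beyond counting error.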
